A study of Mus musculus with 8 samples.

Results

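The genes described here are 8 core pluripotency factors, Sox2, Pou5f1, Nanog, Sall4, Lin28a, Utf1, Dppa4 and Dppa2, read on arrays of mouse embryonic stem cells after siRNA knockdown. They were chosen by name, and every probe set annotated with exactly 1 of these symbols was taken. A probe set is a group of short probes that reads 1 transcript region, and 13 of the 45037 probe sets tested read the 8 genes, of 18193 genes in all. Cells of the line NG4 were transfected with siSox2, siPsmd14, siDdb1 or the non-targeting siNonTarget, and RNA was taken 48 h later, with 2 arrays in each of the 4 groups. SOX2 is a pluripotency transcription factor, PSMD14 a deubiquitinase of the proteasome, and DDB1 the adaptor of CUL4 ubiquitin ligases. All groups share the cell line and the transfection itself. Separate cultures are not named in the labels, so the p-values cover only array-to-array spread within a group, and that spread may be technical. As defining markers of embryonic stem cells, all 8 genes lay above the array median on 8 of 8 arrays, whichever siRNA was used.

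Pluripotency is held by a small circuit of transcription factors. OCT4, the product of Pou5f1, and SOX2 bind DNA side by side at a composite element and, with NANOG, act on each other's genes and on a wide set of targets. SALL4 is a zinc finger factor that binds OCT4 and NANOG. UTF1 and the paralogs DPPA4 and DPPA2 are chromatin proteins of pluripotent cells, and LIN28A is an RNA-binding protein that blocks maturation of the let-7 microRNAs.

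Nanog, Pou5f1, Sox2 and Utf1 had log2 fold changes close to each other in siSox2 (none past the threshold), and their promoter windows are shown. They run from 250 bases before to 50 bases after the annotated transcript start (RefSeq, GRCm38.p6, plus strand), and capitals mark matches to the SOX letters CATTGT, the OCT letters ATGCAAA, or CATTGT and ATGCAAA with 1 base between them, on either strand. Each composite match also counts as a match of both shorter motifs.
Nanog, chr6:122707315-122707614: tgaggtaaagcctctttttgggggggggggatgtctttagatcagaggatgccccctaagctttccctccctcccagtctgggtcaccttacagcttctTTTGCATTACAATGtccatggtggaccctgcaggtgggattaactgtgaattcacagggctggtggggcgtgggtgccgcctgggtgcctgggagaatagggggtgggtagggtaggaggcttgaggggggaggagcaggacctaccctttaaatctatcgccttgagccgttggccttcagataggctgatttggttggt
Pou5f1, chr17:35505782-35506081: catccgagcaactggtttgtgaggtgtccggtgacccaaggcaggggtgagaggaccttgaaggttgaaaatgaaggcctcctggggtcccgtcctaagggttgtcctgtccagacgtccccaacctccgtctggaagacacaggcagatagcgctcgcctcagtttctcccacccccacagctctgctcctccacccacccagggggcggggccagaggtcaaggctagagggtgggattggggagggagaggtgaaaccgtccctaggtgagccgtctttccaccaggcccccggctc
Sox2, chr3:34649745-34650044: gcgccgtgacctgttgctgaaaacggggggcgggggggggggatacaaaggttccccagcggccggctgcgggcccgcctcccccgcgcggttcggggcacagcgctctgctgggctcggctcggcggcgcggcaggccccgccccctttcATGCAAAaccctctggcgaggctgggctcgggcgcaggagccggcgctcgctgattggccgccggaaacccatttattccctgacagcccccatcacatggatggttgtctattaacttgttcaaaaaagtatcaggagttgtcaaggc
Utf1, chr7:139943606-139943905: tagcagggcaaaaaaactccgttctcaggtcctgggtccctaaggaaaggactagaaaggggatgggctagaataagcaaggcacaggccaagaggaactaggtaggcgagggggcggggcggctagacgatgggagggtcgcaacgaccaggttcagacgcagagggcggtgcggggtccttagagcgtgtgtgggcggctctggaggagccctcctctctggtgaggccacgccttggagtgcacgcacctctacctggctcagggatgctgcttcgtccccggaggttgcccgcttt

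RefSeq windows were found for 5 of the 8 genes, the other being Lin28a, with 7 windows in all. The composite was present in 2 of all 32851 windows (0.00609%), and both were the overlapping windows of Nanog. In the window printed above it lay 151 to 138 bases before the start. The SOX letters alone were present in 12.6% of all windows and in windows of 3 of the 5 genes, Nanog, Lin28a and the second start of Pou5f1. The OCT letters alone were present in 4.63% and in windows of 2 genes, Nanog and Sox2, where they lay 99 to 93 bases before the start. The Utf1 window and the Pou5f1 window shown held none of these letters, which describes these windows only. Any link between these matches and the fold changes was not tested.

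The targeted transcripts were read by 1 probe set each. Ddb1 stood at 22.1% and 46.1% of the siNonTarget mean on the siDdb1 arrays, and Psmd14 at 90.5% and 82.7% on the siPsmd14 arrays. By the limma test neither difference passed (adjusted p = 0.147 and 0.522), nor did Sox2 in siSox2, which is described first among the members. The array medians of signal lay between 27.4 and 28.8 intensity units. The trophectoderm markers (9 measured) summed to 4855.5 to 6245.8 intensity units in siSox2, against 1154.2 to 1226.6 in siNonTarget. They summed to 1344.0 to 1358.3 in siPsmd14 and 1223.4 to 1373.1 in siDdb1. Of these 9, Elf5 lay below the array median on 8 of 8 arrays, Plac1 on 4 and the others on 0. In siSox2 6 of the 9 rose by the limma test and 0 fell, where 1.88% and 1.05% of all probe sets did. In siPsmd14 1 of the 9 rose and 0 fell, where 1.11% and 0.240% did, and in siDdb1 0 passed, where 0.0266% did. At an unadjusted p of 0.05, 6 were higher in siSox2, 6 in siPsmd14 and 4 in siDdb1, and 0 lower in each. Of all probe sets 7.49%, 6.82% and 4.31% were higher by that rule. These lists were chosen with earlier results of these data known. The fibroblast markers (11 measured) summed to 277.0 to 325.6 in siSox2, 311.6 to 321.1 in siPsmd14 and 293.9 to 300.4 in siDdb1, against 255.9 to 273.0 in siNonTarget. Of these 11, Col1a1, Col3a1, Postn and Lum lay below the array median on 8 of 8 arrays, Col1a2 and Twist1 on 0, and the other 5 on 2 to 7. By the limma test 1 of the 11 rose and 1 fell in siSox2, 1 rose and 0 fell in siPsmd14, and 0 passed in siDdb1. The primitive endoderm markers (8 measured) summed to 486.0 to 699.9 in siSox2, 357.6 to 359.4 in siPsmd14 and 325.4 to 361.9 in siDdb1, against 315.1 to 380.1 in siNonTarget. Of these 8, Gata4, Sox17 and Sox7 lay below the array median on 8 of 8 arrays, Dab2 on 0, and the other 4 on 1 to 7. They did not move together in siSox2, where 3 rose and 1, Lama1, fell (-2.94, limma adjusted p = 0.000332). The neuroectoderm markers (6 measured) summed to 802.9 to 851.9 in siSox2, 1563.0 to 1726.1 in siPsmd14 and 1728.0 to 1827.7 in siDdb1, against 1449.6 to 1548.9 in siNonTarget. Of these 6, Zic1 lay below the array median on 8 of 8 arrays, Pax6 on 1 and the others on 0. In siSox2 3 of the 6 fell by the limma test and 0 rose, and Nes had a positive value (0.55) that did not pass. In siPsmd14 Nes rose (0.76, limma adjusted p = 0.0415) and 0 fell, and in siDdb1 0 of the 6 passed. The part of these cell types in the members' values was not tested. In these bulk samples, fewer cells of a type and less RNA per cell cannot be told apart.

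None of the 8 genes passed an adjusted p of 0.05 in any of the 6 comparisons between groups. In siSox2 and siPsmd14 all 8 genes had log2 fold changes below 0 against siNonTarget, and in siDdb1 5 of 8 did. Of all genes, 55.2% lay below 0 in siSox2, 52.6% in siPsmd14 and 53.2% in siDdb1. The 8 genes had a median of -0.36 in siSox2, -0.26 in siPsmd14 and -0.14 in siDdb1, beside medians over all genes of -0.03, -0.01 and -0.01. The 3 comparisons share the siNonTarget arrays. The 95% intervals of the 24 fold changes against siNonTarget ran from -0.87 to 0.57 on the log2 scale at their widest, so that a 2-fold difference lay outside each interval.

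**Figure D1:**
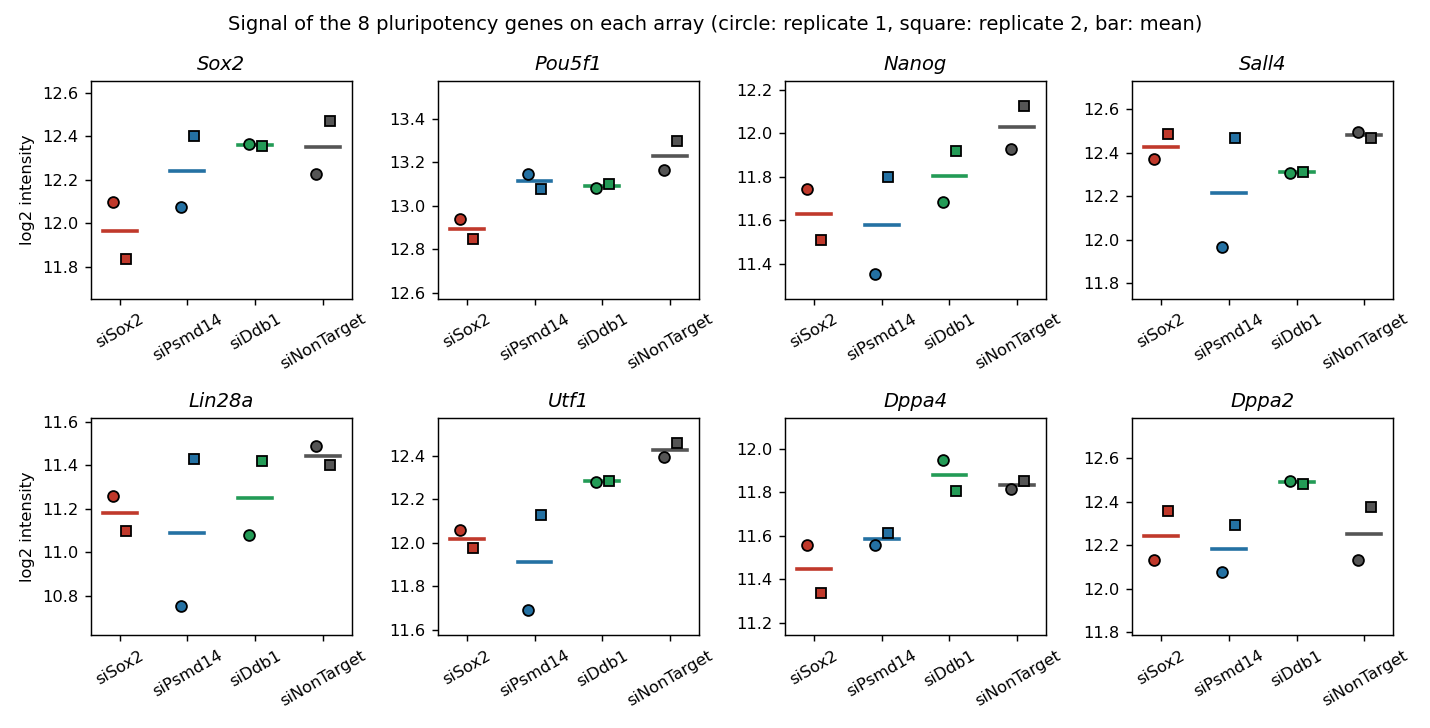
The log2 intensity (y axis) of each of the 8 genes is plotted for siSox2, siPsmd14, siDdb1 and siNonTarget (x axis), with a circle for replicate 1, a square for replicate 2 and a bar for the mean of 2 arrays. Each panel spans the same 1 log2 unit around its own centre. The siPsmd14 replicate 1 array was the lowest of 8 for Nanog (11.35), Sall4 (11.97), Lin28a (10.75), Utf1 (11.69) and Dppa2 (12.08).

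Sox2 (chr3:34649995-34652461), the targeted transcription factor, had a signal of 4381 and 3655 intensity units in siSox2, 4312 and 5417 in siPsmd14, 5268 and 5244 in siDdb1, against 4795 and 5682 in siNonTarget. Both siSox2 arrays lay below both siNonTarget arrays, at 83.6% and 69.8% of the siNonTarget mean, while the siPsmd14 and siDdb1 arrays overlapped the control. Against siNonTarget the siSox2 log2 fold change was -0.38 (SE 0.16, 95% interval -0.75 to -0.02, limma adjusted p = 0.301), and in siPsmd14 and siDdb1 it was -0.11 and 0.01. The array siPsmd14 replicate 1 lay below siSox2 replicate 1. By group mean Sox2 was highest in siDdb1, then siNonTarget, siPsmd14 and siSox2. No neighbours in that order passed the threshold (limma adjusted p of 0.483 to 0.994).

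Pou5f1 (chr17:35506032-35510777), which encodes OCT4, read 7838 and 7370 in siSox2, 9069 and 8631 in siPsmd14, 8668 and 8784 in siDdb1, against 9164 and 10072 in siNonTarget. All 6 knockdown arrays lay below both control arrays, and the siSox2 pair was lowest. In siSox2 the log2 fold change was -0.34 (SE 0.12, 95% interval -0.61 to -0.06, limma adjusted p = 0.212), with -0.12 in siPsmd14 and -0.14 in siDdb1. In the order siNonTarget, siPsmd14, siDdb1, siSox2 no step passed the threshold (limma adjusted p of 0.539 to 0.976). Its SE was the smallest of the 8 genes.

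Nanog (chr6:122707489-122714633), a homeobox factor that stabilises the naive state, read 3432 and 2916 in siSox2, 2614 and 3564 in siPsmd14, 3291 and 3869 in siDdb1, against 3898 and 4471 in siNonTarget. Here too the 6 knockdown arrays lay below both control arrays, with siPsmd14 replicate 1 lowest at 62.5% of the control mean. Nanog had a log2 fold change of -0.40 in siSox2 (SE 0.18, limma adjusted p = 0.342), -0.45 in siPsmd14 (adjusted p = 0.289) and -0.23 in siDdb1 (adjusted p = 0.833). The order of means was siNonTarget, siDdb1, siSox2, siPsmd14, and no step passed the threshold (limma adjusted p of 0.769 to 0.937).

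Utf1 (chr7:139943856-139945112), a chromatin protein whose enhancer is a known joint target of OCT4 and SOX2, had the largest fold changes of the 8 genes in siSox2 and siPsmd14. It read 4271 and 4030 in siSox2, 3309 and 4481 in siPsmd14, 4976 and 4987 in siDdb1, against 5378 and 5622 in siNonTarget. The 6 knockdown arrays lay below both control arrays, and the siSox2 and siPsmd14 arrays below both siDdb1 arrays. Utf1 differed from siNonTarget by -0.51 log2 in siPsmd14 (SE 0.16, 95% interval -0.87 to -0.16, limma adjusted p = 0.163), -0.41 in siSox2 (adjusted p = 0.247) and -0.14 in siDdb1 (adjusted p = 0.891). Without siPsmd14 replicate 2 the siPsmd14 value was -0.73 and passed (limma adjusted p = 0.0422), with the lone array assumed to vary like the other groups, and without replicate 1 it was -0.30. A second Utf1 probe set gave -0.38 in siPsmd14 and -0.27 in siSox2, with neither passing, and the third lay below the median of all 8 arrays, at 3.27 to 3.61 log2. By mean Utf1 ran from siNonTarget through siDdb1 and siSox2 to siPsmd14 (limma adjusted p of 0.518 to 0.891 between neighbours).

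Sall4 (chr2:168748332-168767201), the zinc finger partner of OCT4, read 5295 and 5742 in siSox2, 4000 and 5664 in siPsmd14, 5068 and 5089 in siDdb1, against 5772 and 5673 in siNonTarget. The lowest value was that of siPsmd14 replicate 1, at 69.9% of the control mean, while replicate 2 stood at 99.0%. For Sall4 the log2 fold change was -0.05 in siSox2, -0.27 in siPsmd14 (SE 0.17, limma adjusted p = 0.528) and -0.17 in siDdb1. The other Sall4 probe set had the opposite sign in siPsmd14 (0.13), where replicate 2 was its highest array (255.4 intensity units). In the order siNonTarget, siSox2, siDdb1, siPsmd14 no neighbours passed the threshold (limma adjusted p of 0.849 to 0.936).

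Lin28a (chr4:134003330-134019196), the let-7 blocking protein, read 2451 and 2190 in siSox2, 1722 and 2757 in siPsmd14, 2160 and 2739 in siDdb1, against 2868 and 2704 in siNonTarget. The siPsmd14 and siDdb1 groups each held 1 low array and 1 array inside the control range, and only the siSox2 pair lay wholly below it. Lin28a had log2 fold changes of -0.27 in siSox2, -0.35 in siPsmd14 and -0.20 in siDdb1, each with the widest SE of the 8 genes (0.22). The other Lin28a probe set gave -0.34, -0.49 and -0.18 in the same order of groups, with limma adjusted p of 0.358 to 0.906. The order of means was siNonTarget, siDdb1, siSox2, siPsmd14 (limma adjusted p of 0.892 to 0.944 between neighbours).

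Dppa4 (chr16:48283735-48294292) and Dppa2 (chr16:48310274-48319513) lie 15981 bases apart on chromosome 16 and encode SAP domain proteins that act as a pair. Dppa4 read 3016 and 2581 in siSox2, 3012 and 3132 in siPsmd14, 3955 and 3577 in siDdb1, against 3600 and 3690 in siNonTarget. The siSox2 and siPsmd14 arrays all lay below the control, and the siDdb1 arrays lay on either side of it. Its log2 fold change in siSox2 was -0.39 (SE 0.13, 95% interval -0.68 to -0.09, limma adjusted p = 0.189), the smallest adjusted p of the 8 genes there, with -0.25 in siPsmd14 and 0.05 in siDdb1. By mean Dppa4 was highest in siDdb1, then siNonTarget, siPsmd14 and siSox2 (limma adjusted p of 0.441 to 0.967 between neighbours).

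Dppa2 read 4485 and 5243 in siSox2, 4317 and 5022 in siPsmd14, 5784 and 5730 in siDdb1, against 4494 and 5309 in siNonTarget. It was the single member whose 2 siDdb1 arrays both lay above both control arrays, with a log2 fold change of 0.24 (SE 0.15, 95% interval -0.09 to 0.57, limma adjusted p = 0.76), and its second probe set gave 0.26. The value was 0.12 without siNonTarget replicate 1 and 0.36 without siNonTarget replicate 2. In siSox2 and siPsmd14 its fold changes were -0.01 and -0.07, with arrays that overlapped the control. In siSox2 Dppa4 stood at 76.6% and Dppa2 at 99.3% of the control. The log2 difference Dppa4 minus Dppa2, set to 0 at the control mean, was -0.15 and -0.60 on the siSox2 arrays, -0.10 and -0.26 on the siPsmd14 arrays and -0.13 and -0.26 on the siDdb1 arrays, against 0.10 and -0.10 on the siNonTarget arrays. All 6 knockdown arrays lay below 0, siSox2 replicate 2 was lowest, and the second siPsmd14 and siDdb1 arrays lay below siSox2 replicate 1. No test was run on this difference. The order for Dppa2 was siDdb1, siNonTarget, siSox2, siPsmd14 (limma adjusted p of 0.76 to 0.987 between neighbours).

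**Figure D2:**
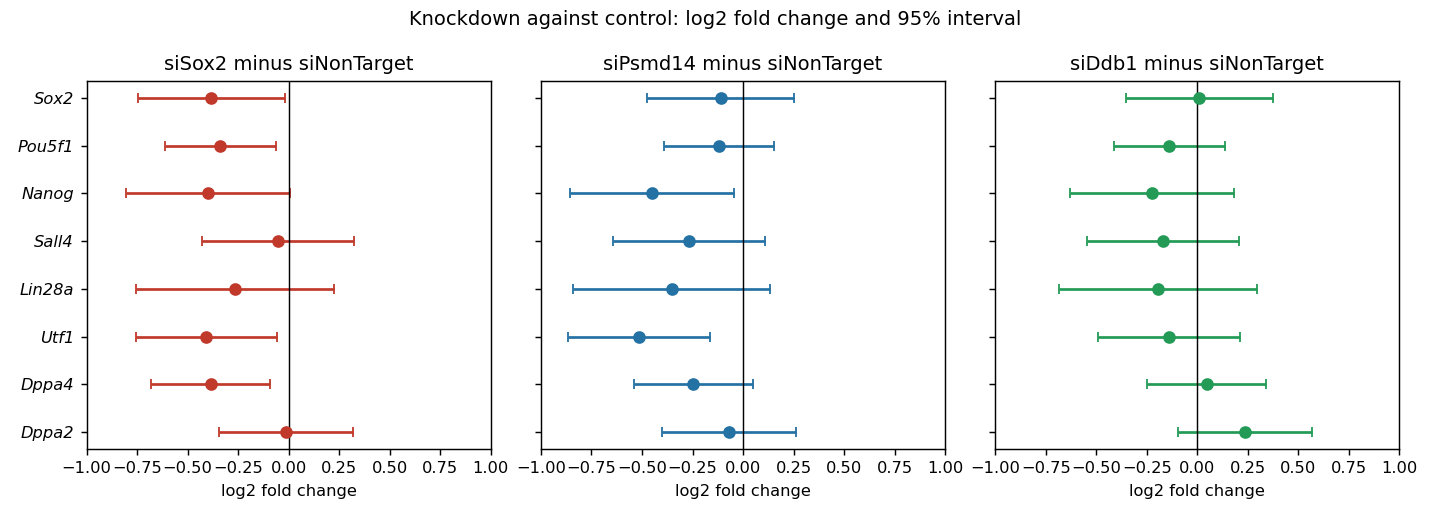
The log2 fold change against siNonTarget (x axis) is plotted for each gene (y axis) in siSox2, siPsmd14 and siDdb1, with bars for the 95% interval from the limma model of all 8 arrays. In siSox2 4 intervals lay wholly below 0, in siPsmd14 2 did (Nanog and Utf1), and in siDdb1 every interval held 0.

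In siSox2, 0 of 8 genes passed an adjusted p of 0.05 in the limma test, where 2.93% of all probe sets did. Shares of all probe sets include dim ones and those without a symbol. With each gene read by its brightest probe set, 4.28% of genes passed in siSox2, 1.89% in siPsmd14 and 0.0440% in siDdb1. At an unadjusted p of 0.05, 4 of 8 were lower (Sox2, Pou5f1, Utf1 and Dppa4), where 7.49% of probe sets were lower by that rule. For 6 of 8 genes both siSox2 arrays lay below both control arrays, Sall4 and Dppa2 being the exceptions, and 27.6% of probe sets met that condition. The probe sets that passed in siSox2 had a median absolute log2 fold change of 1.08 and a smallest one of 0.53. The largest of the 8 genes, Utf1, was smaller than that (-0.41).

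In siPsmd14, 0 of 8 genes passed in the limma test, where 1.35% of all probe sets did, and 2 were lower at an unadjusted p of 0.05 (Utf1 and Nanog), where 7.68% of probe sets were. Both siPsmd14 arrays lay below both control arrays for 5 of 8 genes (Pou5f1, Nanog, Sall4, Utf1 and Dppa4), a condition that 23.7% of probe sets met. Sall4 met it narrowly, with 5664 on siPsmd14 replicate 2 against 5673 on siNonTarget replicate 2, and its other probe set overlapped the control. In siDdb1, 0 of 8 passed in the limma test, where 0.0266% of probe sets did, and 0 of 8 reached an unadjusted p of 0.05, where 8.04% did. Both siDdb1 arrays lay below the control for 4 of 8 (Pou5f1, Nanog, Sall4 and Utf1), against 21.2% of probe sets, and above it for 1 of 8 (Dppa2), against 17.6%.

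A test of any difference among the 4 groups (limma F test) also gave 0 of 8 genes at an adjusted p of 0.05, where 3.96% of probe sets passed. Dppa4 (adjusted p = 0.202) and Utf1 (adjusted p = 0.218) had the smallest values of the 8. They were the 2 genes with an unadjusted p under 0.05, a rule that 18.3% of probe sets met. Utf1 was the single gene whose 4 group means spanned at least 0.5 log2 (0.51). The profiles most like that of Utf1 over the 8 arrays, among 11605 genes whose mean signal was above the median, were those of Noc4l and Nolc1, both known from the nucleolus. Centred on their own means they differed from Utf1 by a root mean square of 0.04 and 0.05 log2, beside an SD of 0.23 log2 for Utf1 itself. Both were lowest on siPsmd14 replicate 1, at -0.41 and -0.36 log2 from their own means, as Utf1 was. They were chosen by likeness over these same arrays, so the shared lowest array is not a separate observation.

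By the median over the 8 genes, the siPsmd14 arrays differed from each other more than the other pairs did, though for Pou5f1, Dppa4 and Dppa2 another pair differed more. In siPsmd14 replicate 1 was lower than replicate 2 for 7 of 8 genes, with Pou5f1 the exception, and the median difference was -0.38 log2. In Lin28a it was -0.68, in Sall4 -0.50, in Nanog -0.45 and in Utf1 -0.44. Over all genes the median of that difference was 0.01 and replicate 1 was lower for 48.4%. The median absolute difference between replicates of the 8 genes was 0.38 log2 in siPsmd14, 0.19 in siSox2 and 0.02 in siDdb1, against 0.11 in siNonTarget. The same measure over all genes was 0.18, 0.15, 0.15 and 0.15 in that order. Actb probes at the 3' end exceeded those at the 5' end by 0.35 log2 on replicate 1 of siPsmd14, where the remaining 7 arrays gave 0.10 to 0.21. For Gapdh the same difference was -0.02 log2 on replicate 1 of siPsmd14 and -0.13 to -0.08 on the other arrays. Such a difference between 3' and 5' probes is used for RNA integrity. Signal for 18S ribosomal RNA was highest on siPsmd14 replicate 2, at 13.06 log2. Their part in the difference was not tested. Without replicate 1 the siPsmd14 fold changes were -0.01 for both Lin28a and Sall4, -0.23 for Nanog, 0.05 for Sox2 and 0.04 for Dppa2, while Dppa4 (-0.22) and Pou5f1 (-0.15) moved little.

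**Figure D3:**
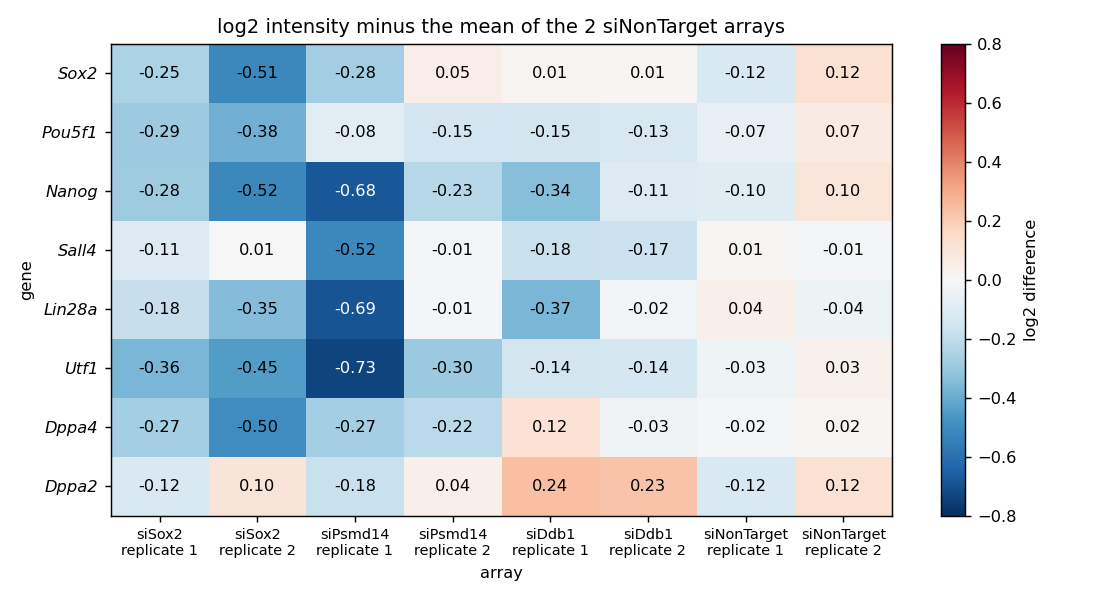
Each cell gives a gene's log2 intensity on 1 array minus the mean of the 2 siNonTarget arrays (rows are genes, columns are arrays, the colour scale is in log2 units). The 3 lowest cells are on siPsmd14 replicate 1 (Utf1 -0.73, Lin28a -0.69, Nanog -0.68), and the highest are Dppa2 on the siDdb1 arrays (0.24 and 0.23).

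The knockdowns were also set directly against each other. Against siSox2, siDdb1 had higher values for 7 of 8 genes (median 0.22). The largest differences were those of Dppa4 (0.43, SE 0.13, 95% interval 0.14 to 0.73, limma adjusted p = 0.139) and Sox2 (0.39, SE 0.16, limma adjusted p = 0.298), Sox2 being the siSox2 target. Of 8 genes 0 passed in the limma test, where 3.08% of probe sets did, and these 2 were higher at an unadjusted p of 0.05, where 6.94% were. Both siDdb1 arrays lay above both siSox2 arrays for 5 of 8 genes, against 24.1% of probe sets, and below them for 1, Sall4, against 20.9%. Nanog and Lin28a overlapped.

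Against siDdb1, siPsmd14 had lower values for 7 of 8 genes (median -0.19). Utf1 differed by -0.37 (SE 0.16, limma adjusted p = 0.429), Dppa2 by -0.31 and Dppa4 by -0.29, and for these 3 genes the groups did not overlap, a condition that 19.7% of probe sets met downward. Of 8 genes 0 passed in the limma test (0.413% of probe sets did). By its brightest probe set, Utf1 was the 1 gene lower at an unadjusted p of 0.05 (5.50% of probe sets were). The second Dppa2 probe set gave -0.42 (limma unadjusted p = 0.0286, adjusted p = 0.377). The second Utf1 probe set gave -0.32 (limma unadjusted p = 0.064). Against siSox2, siPsmd14 had a median of -0.06, with Sox2 (0.27) and Pou5f1 (0.22) highest and Sall4 (-0.21) lowest. Here 0 of 8 passed in the limma test (2.79% of probe sets did) and 0 of 8 had an unadjusted p under 0.05 (15.7% did). Pou5f1 was the 1 gene with both siPsmd14 arrays above both siSox2 arrays, against 23.8% of probe sets. The 95% intervals of these 24 differences ran from -0.72 to 0.76 log2 at their widest.

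**Figure D4:**
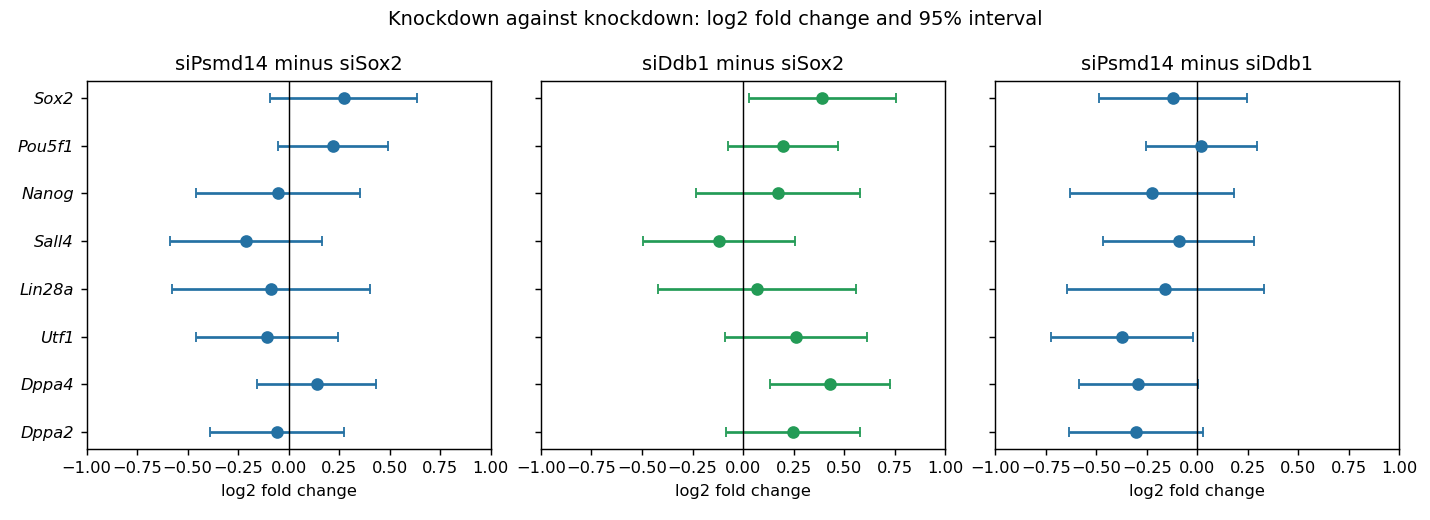
The log2 fold change between 2 knockdowns (x axis) is plotted for each gene (y axis), with bars for the 95% interval from the limma model. Intervals that leave out 0 are those of Sox2 and Dppa4 for siDdb1 minus siSox2 and of Utf1 for siPsmd14 minus siDdb1.

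Among the genes around the core factors, siSox2 was the knockdown with members past the threshold. Of 19 network partners measured, 4 fell in siSox2 and 0 rose, where 1.05% of all probe sets fell and 1.88% rose. They were the nuclear receptor gene Nr0b1 (log2 fold change -1.67, SE 0.17), the AKT coactivator gene Tcl1 (-1.40), the zinc finger gene Zscan10 (-0.68) and the orphan receptor gene Esrrb (-0.58), with limma adjusted p between 0.00197 and 0.0399. The partners' median was -0.45 in siSox2, -0.37 in siPsmd14 and -0.42 in siDdb1, beside medians over all genes of -0.03, -0.01 and -0.01. At an unadjusted p of 0.05 in the limma test, 9 of the 19 were lower in siSox2, 9 in siPsmd14 and 8 in siDdb1. Of all probe sets 7.49%, 7.68% and 3.72% were lower by that rule. In siPsmd14 and siDdb1 none of the 19 passed the adjusted threshold. Esrrb had the smallest p in both (-0.48 and -0.49). The siSox2 count was 1 without siSox2 replicate 2, siNonTarget replicate 1 or siNonTarget replicate 2, and 2 without either siDdb1 array. In siPsmd14 it was 3 without siPsmd14 replicate 2.

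Of 14 lineage regulators, factors of other cell fates that the network is known to restrain, 5 rose and 3 fell in siSox2. Among all probe sets, 1.88% rose and 1.05% fell by the same test. Gata3 (2.33), Cdx2 (1.65) and the endoderm factor Foxa2 (1.60) were higher, and the neurogenic factor Neurod1 was lower (-2.22), with limma adjusted p from 0.000503 to 0.00753. The list holds neural factors as well as trophoblast and endoderm ones, and its median was 0.29. It shares 5 genes with the 9 trophectoderm markers, whose summed level was highest on the siSox2 arrays. Other genes of the list are also primitive endoderm or neuroectoderm markers. The part of these cell types was not tested. In siPsmd14 and siDdb1 none of the 14 passed in the limma test, with 5 and 4 higher and 1 and 0 lower at an unadjusted p of 0.05. Over all probe sets 6.82% and 4.31% were higher and 7.68% and 3.72% lower by that rule. Eomes had values of 0.80 and 1.41 (limma adjusted p = 0.101 and 0.0853), and Neurod1 1.25 in siDdb1 (adjusted p = 0.0853). The siSox2 count of 8 was 4 without siSox2 replicate 2 and 3 without either siNonTarget array. In siPsmd14 it was 1 without siPsmd14 replicate 2 or either siDdb1 array, and in siDdb1 1 without siDdb1 replicate 2.

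Of 11 target genes of OCT4 and SOX2 none passed in any knockdown in the limma test, with 3 lower in siSox2, 6 in siPsmd14 and 2 in siDdb1 at an unadjusted p of 0.05. The shares of all probe sets lower by that rule were 7.49%, 7.68% and 3.72%. The growth factor gene Fgf4 had the smallest p each time, with -0.85 in siSox2 (limma adjusted p = 0.0707), -0.89 in siPsmd14 (0.0826) and -0.76 in siDdb1 (0.34). The TGF-beta family gene Gdf3 followed, with -0.54, -0.46 and -0.37. The medians of these targets were -0.15, -0.43 and -0.19. Without siPsmd14 replicate 2, 2 targets passed in siPsmd14.

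Of 11 genes of the LIN28 pathway none passed in the limma test. The uridylyltransferase gene Tut4, whose product marks pre-let-7 for decay with LIN28A, had 0.49, 0.46 and 0.35 in siSox2, siPsmd14 and siDdb1 (limma adjusted p = 0.171, 0.22 and 0.637), and the list's medians were 0.23, 0.02 and 0.04. At an unadjusted p of 0.05, 2 were higher and 1 lower in siSox2, 1 higher in siPsmd14 and 1 lower in siDdb1. Over all probe sets 7.49% were higher and 7.49% lower in siSox2, 6.82% higher in siPsmd14 and 3.72% lower in siDdb1, so that the counts of 1 among 11 genes were near the background. Of 12 SALL4 partners, with subunits of the NuRD deacetylase complex, none passed, with 1, 0 and 0 higher and 0, 2 and 1 lower at that p, against 7.49%, 6.82% and 4.31% of all probe sets higher and 7.49%, 7.68% and 3.72% lower. The list had medians of -0.04, -0.11 and -0.07. Mbd3, a methyl-CpG-binding family subunit of NuRD, had -0.54 in siPsmd14 (limma adjusted p = 0.197), and the histone-binding subunit gene Rbbp7 had 0.43 in siSox2. Without siPsmd14 replicate 2, 2 genes of this list passed in siPsmd14.

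Only 5 of 11 listed genes downstream of DPPA2 and DPPA4 were read by a probe set of their own, and none passed in the limma test. Zfp352, a zinc finger gene of the 2-cell-like state, had 1.84 in siPsmd14 (SE 0.62, adjusted p = 0.209) and 1.63 in siDdb1 (adjusted p = 0.536), and the germline gene Mael 1.04 in siSox2 (adjusted p = 0.113). At an unadjusted p of 0.05, 1 was higher in siSox2, 1 in siPsmd14 and 3 in siDdb1, where 7.49%, 6.82% and 4.31% of all probe sets were higher. Of the 3 in siDdb1, Tcstv1 (3.92 log2 against 3.37 in siNonTarget) and Tcstv3 (4.48 against 2.89, SE 0.65) had group means below the array medians. The list's medians were 0.72, 0.24 and 0.55, the last being the value of Tcstv1. Without siSox2 replicate 1, 1 gene passed in siSox2.

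**Figure D5:**
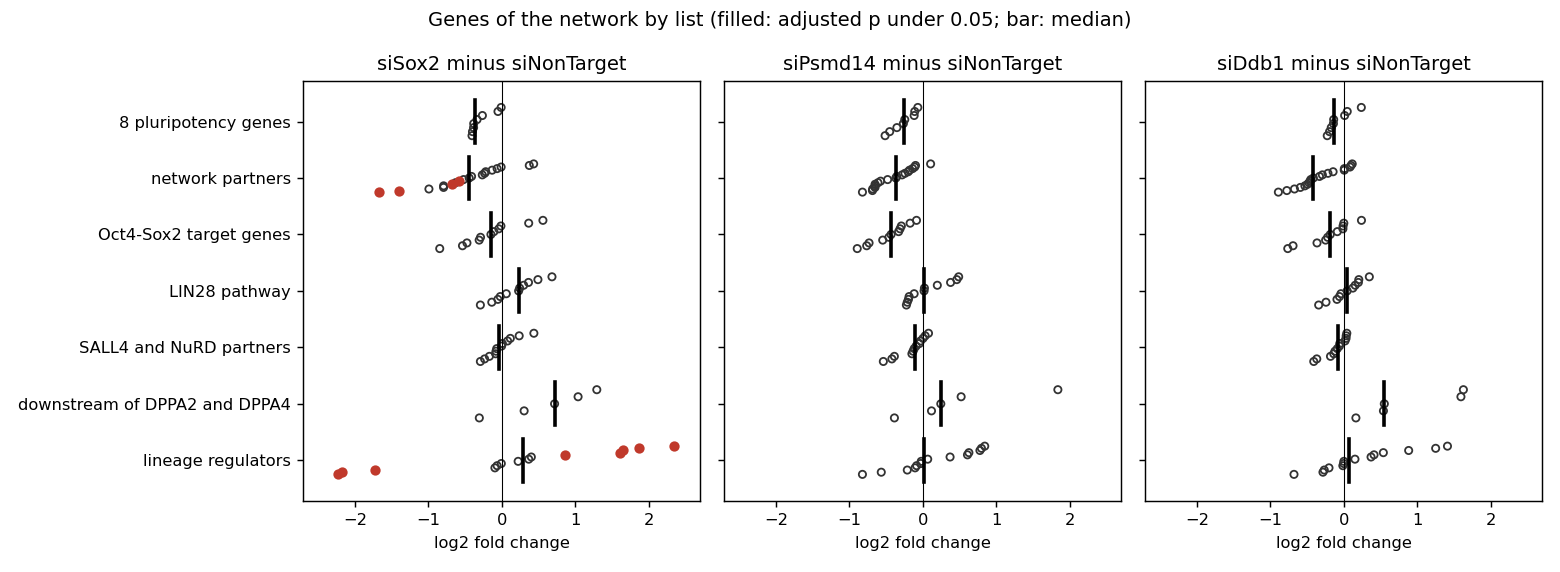
The log2 fold change against siNonTarget (x axis) is plotted for the 8 pluripotency genes and 6 lists of related genes (y axis), with 1 point per gene, filled where the limma adjusted p was under 0.05, and a bar for each list's median. Filled points appear in siSox2 alone, among the network partners (4) and the lineage regulators (8).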

How the data were processed

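Total RNA (5 ng) was amplified, and biotinylated cDNA went onto Affymetrix arrays, as the labels' protocols state. The authors deposited RMA values, named in the submitters' processing notes, which the values show to be linear intensity. RMA's settings were not stated in those notes. Usual RMA gives every array a like distribution, so a difference is read against most other probe sets. Here log2 was taken and 64 control probe sets of 45101 were dropped. In GEO's platform annotation 34945 probe sets had 1 symbol, 932 several and 9160 none. All 8 members were found in the RefSeq table by Entrez ID.

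Each gene was represented by its brightest probe set with 1 symbol. One limma model (version 3.58.1, R 4.3.3, lmFit, eBayes) held all 8 arrays, with Benjamini-Hochberg adjustment over 45037 probe sets and a threshold of 0.05. SE values of log2 fold changes were 0.12 to 0.22 for the members, and 2 arrays per group limit the precision. The code was tested on simulated data. Members and lists were chosen with earlier results of these data known.

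The genes named were the members, the siRNA targets and, per list, those past the threshold (at most 4, by p). Where none passed, they came from the 2 with the smallest p. Marker genes were also named for their place against the array median or a direction unlike that of their list. Profile likeness was sought for members whose group means spanned at least 0.5 log2. Other settings tried were a filter on the dimmer 50% of probe sets, array medians subtracted, quantile normalization, a robust eBayes with a trend, array weights, only the 4 arrays compared, a replicate block, means over a gene's probe sets, and each array left out. The crossed siDdb1 block was chosen after seeing the data.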

Additional observations from a re-analysis of the deposited data

How the results depend on the processing

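In no setting that kept all 8 arrays, or the 4 arrays compared, did any of the 8 genes pass in any of the 6 comparisons or the F test. With 1 array left out, the siPsmd14 count against siNonTarget was 0 to 1 (Utf1, without siPsmd14 replicate 2), and the other counts stayed at 0. Of the members' fold changes with all arrays kept, 428 kept sign and side of the threshold and 4 changed sign. With array medians subtracted, Dppa2 in siSox2 was 0.0075 and Sox2 in siDdb1 -4e-04. With a gene's probe sets averaged, Sall4 was 0.0292 in siPsmd14 against siSox2 and 0.1257 in siPsmd14 against siDdb1, and the other Sall4 probe set differed in sign there. For the other changes of sign the cause was not tested.

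Leaving out 1 array turned the sign of these small differences. Against siNonTarget, siSox2 gave -0.11 to 0.0051 for Sall4 and -0.13 to 0.11 for Dppa2. In siPsmd14 Sox2 ran from -0.28 to 0.0535 and Dppa2 from -0.19 to 0.0511, and in siDdb1 Sox2 from -0.11 to 0.13 and Dppa4 from -0.0268 to 0.12. For siPsmd14 against siSox2 the ranges were -0.275 to 0.17 for Nanog, -0.46 to 0.0386 for Sall4, -0.43 to 0.25 for Lin28a, -0.33 to 0.11 for Utf1 and -0.17 to 0.0541 for Dppa2. For siDdb1 against siSox2 Lin28a ran from -0.10 to 0.24. For siPsmd14 against siDdb1 they were -0.29 to 0.0435 for Sox2, -0.0158 to 0.0556 for Pou5f1, -0.34 to 0.16 for Sall4 and -0.50 to 0.18 for Lin28a.

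Replicate differences had correlations between groups of -0.22 to 0.24. The value was 0.24 for siSox2 with siNonTarget, and -0.22 and -0.21 for siDdb1 with these groups. Whether replicate numbers pair the samples was not tested. With the replicate block, 0 members passed in each comparison (Utf1 in siPsmd14 -0.51, limma adjusted p = 0.168), and likewise with the crossed siDdb1 numbers (adjusted p = 0.153). Over all probe sets the block gave 2 calls in siDdb1, the crossed block 53 and the fit without a block 12. In siSox2 these fits gave 1256, 1491 and 1320, and in siPsmd14 519, 753 and 609. The counts over all probe sets with 1 array left out ran from 153 to 1440 in siSox2 (1320 with all arrays), 17 to 1295 in siPsmd14 (609) and 0 to 146 in siDdb1 (12). In siDdb1 the count was 0 with the filter or with only the 4 arrays, and averaging probe sets, which leaves fewer features, gave 3 in siDdb1 and 378 in siPsmd14. Between knockdowns, the counts with 1 array left out ran from 319 to 1486 for siDdb1 against siSox2 (1387 with all arrays), 11 to 884 for siPsmd14 against siDdb1 (186) and 325 to 1543 for siPsmd14 against siSox2 (1255). With only the 4 arrays they were 789, 11 and 455 in that order, array weights gave 122 for siPsmd14 against siDdb1, and averaged probe sets 809 for siPsmd14 against siSox2. Among the lists, 1 OCT4 and SOX2 target passed in siSox2 with array weights or the robust eBayes.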
